A study of Mus musculus with 2 samples.

Results

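Genes of the extracellular matrix, the basement membrane and the integrin adhesion system were examined in a map of N6-methyladenosine (m6A), a methyl mark on adenosines inside messenger RNA, from mouse pancreatic islets. They were chosen by symbol alone, as collagen, laminin, integrin, fibronectin, nidogen, perlecan, agrin, fibrillin, fibulin, LTBP, Sparc, talin, tensin, ADAM, ADAMTS, MMP and TIMP genes. The choice took 145 sites on 57 genes, out of 8987 sites on 4959 gene symbols. No measured value enters the rule, although the family was picked for study with earlier results of these data known. The islets came from 129sv mice aged 2 weeks, with no genotype or treatment stated in the labels. Fragmented RNA was pulled down with an anti-m6A antibody in 1 immunoprecipitate (IP) library and compared with 1 input library that was not pulled down. There are no replicates, so no value below carries an error across animals or a p-value of its own. The sources used here do not say how many animals gave the RNA. The list gives no expression level: of 8 endocrine marker genes, Chga and Chgb carried sites while Ins1, Ins2, Gcg, Sst, Pcsk1 and Pcsk2 had none in it, which says nothing of how much of their RNA the islets held.

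The islet matrix lies mostly along blood vessels and at the islet edge. Type IV collagen chains form a network in the basement membrane, laminin trimers form a second one, and nidogens and the proteoglycan perlecan (Hspg2) join them. Cells hold on to this matrix through integrins, which are pairs of an alpha and a beta chain, and talins and tensins link the beta chain to actin inside the cell. In the islet, beta cells contact vascular basement membrane through integrins that contain the beta 1 chain. ADAM, ADAMTS and MMP proteases cut matrix or cell surface proteins, and TIMPs inhibit metalloproteinases.

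Each site comes with the peak caller's own values from the authors' deposited table. The fold is a linear ratio of the IP over the background expected from the input. The score restates that caller's p on a log scale and rises as p falls: 100 corresponds to 1e-10. The false discovery rate (FDR) is in percent. Coordinates are GRCm38, counted from 1.

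Of the 57 genes, 46 had a transcript start and strand in the RefSeq promoter table, and 13 of these carried a site over such a start, covering at least 30 of the first 50 transcribed bases. The start is the outer base of the annotated gene in 5 of the 13 and lies further in, by up to 6072 bases, in the others. These are the member sites for which a piece of sequence could be read, from the GRCm38.p6 windows of that table, which hold the C57BL/6J reference and not the 129sv genome. In the lines below, capitals mark a 5-base motif of the kind that m6A writers prefer, with A, G or T at the first base, A or G at the second, A at the third, C at the fourth and A, C or T at the fifth. Nid1 and Tns3 held such a motif inside the covered bases, and 6 of the 11 others, picked after their values were seen to cover collagens, integrins, the basement membrane and proteases, are shown as examples without one.
Nid1 (nidogen 1, + strand, chr13:13437603-13437632): ggaggtgaggagGGACTgcggaggggcgta
Tns3 (tensin 3, - strand, chr11:8664486-8664515): ccatcgccccgccGGACCgcgctgcgggtt
Col4a1 (collagen IV alpha 1, - strand, chr8:11312797-11312826): ttggagacgccgcccgcgcactgccgaggg
Col13a1 (collagen XIII alpha 1, - strand, chr10:61979079-61979108): ggctgtgtcaagttacagaggcgccagaat
Itga3 (integrin alpha 3, - strand, chr11:95076685-95076714): cctccctcctgccctcctggtgatcgaggg
Itgb1 (integrin beta 1, + strand, chr8:128685654-128685683): gtttccggagggagagaaaagccgggcagc
Agrn (agrin, - strand, chr4:156197459-156197488): agtcctgccccccgagcggtccggcccgcg
Adamts1 (- strand, chr16:85803084-85803113): gcactcgctagaaagcagctccgagctagg

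The first 50 transcribed bases held the motif on the transcript strand in 2 of the 14 windows covered by a member site (Ltbp4 has 2 overlapping windows), which is 14.3%. On the other strand 4 of the 14 windows held it. Over all genes, 34.6% of 1570 windows covered by a site of their gene held it on the transcript strand and 40.9% on the other. Of all 32851 windows, covered or not, 54.4% held it on the transcript strand and 55.2% on the other. GGACT, which is among the 18 spellings searched, was in 1 member window (7.14%), in 3.89% of all covered windows and in 5.76% of all windows. The sites reach beyond these 50 bases, up to 1138 bases for Adamts1, so an absent motif describes these letters and not the rest of the site.

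Sites lay on 57 of the 193 annotated protein-coding genes whose symbol fits the choice, a share of 29.5% (exact binomial 95% interval 23.2% to 36.5%, counting error only). Over all 21900 protein-coding genes the share was 22.2%. The family genes are long, with a median genomic span of 49526 bases against 17146 for all protein-coding genes. Among genes with a span of at least 10 kb, the shares were 32.5% of 169 family genes and 30% of all 13962 genes. With sites of an FDR below 100% alone, the order turned, with 5.70% of family genes and 7.29% of all genes. Input levels of the genes are unknown here, and a transcript too scarce in the input has no chance of a site.

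The share differed in its point value from role to role, with wide intervals. Basement membrane glycoproteins had a site on 3 of 4 genes, fibronectin and its companions on 7 of 12, laminin chains on 6 of 11 and talins and tensins on 3 of 6. Collagens had a site on 17 of 44 genes (38.6%, interval 24.4% to 54.5%). At the low end stood integrin alpha chains with 2 of 18 (11.1%, interval 1.38% to 34.7%), ADAMTS and ADAMTS-like genes with 3 of 24 and MMPs with 3 of 23. The 4 genes taken in by symbol alone, Itgb1bp1, Itgb1bp2, Itgb3bp and Itgbl1, had no site.

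**Figure D1:**
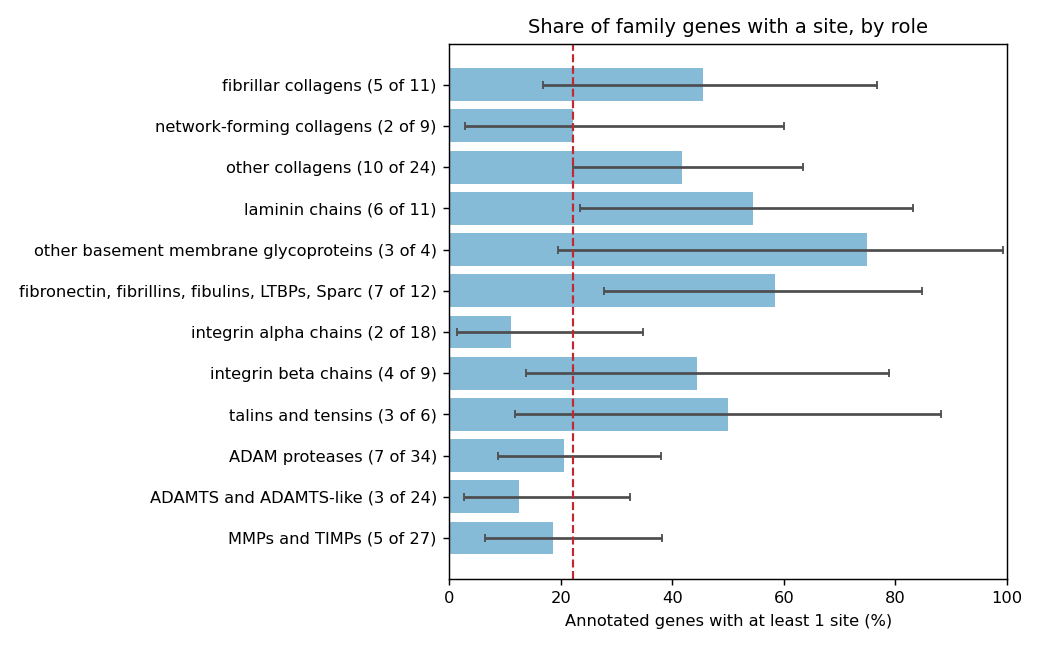
Share of annotated genes with at least 1 site, in percent, for each role; bars give the share, whiskers the exact binomial 95% interval, and the dashed line the 22.2% of all protein-coding genes. Basement membrane glycoproteins (3 of 4) have the longest bar and integrin alpha chains (2 of 18) the shortest, and most intervals span the dashed line.

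Folds of these sites lay below those of the list as a whole. The median was 6.23 (quartiles 5.17 and 7.90, range 2.82 to 18.66) against 7.13 over all 8987 sites (quartiles 5.47 and 9.87). A fold of at least 10 was reached by 18 of 145 sites (12.4%), where 24.6% of all sites reached it. The score was at least 100 at 71 sites (48.97%), against 62.1% of all sites. The FDR was below 100% at 25 sites (17.2%), against 25.7% of all sites. Its lowest value was 27.16%, which was also the lowest in the whole list and was shared with sites of Chga and Chgb. Of these 25 sites, 14 lay on Col4a1 and Col4a2, and without this pair the share was 9.02% of 122 sites. Taking the strongest site of each gene, the median fold was 7.35 for the 57 genes and 8.09 for all genes with a site. With an FDR below 100% alone these were 13.92, over 11 genes, and 13.22. Without that limit, the median strongest fold was 11.71 for 17 collagen genes and 6.845 for the 40 other members. The strongest site was taken from a mean of 4.35 sites per collagen gene, 1.78 per other member gene and 1.81 per gene of the list. These are descriptions of 1 peak list and were not tested.

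**Figure D2:**
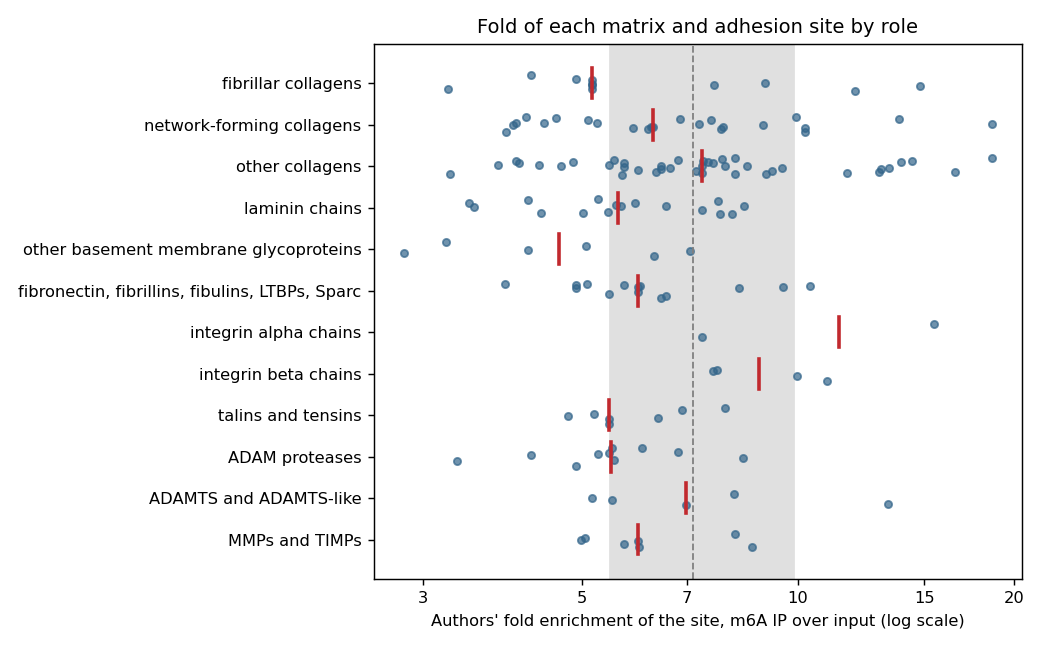
Authors' fold enrichment of each of the 145 sites (log axis), by role; each point is a site, red bars are medians, the grey band and dashed line are the quartiles (5.47 and 9.87) and median (7.13) of all 8987 sites. The highest points are collagen sites, up to 18.66, while laminin sites stay at 8.42 or below.

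Collagens carried 74 of the 145 sites, and 14 of the 18 sites with a fold of at least 10. These 14 were 18.9% of the collagen sites, below the 24.6% of all sites that reached such a fold. The other 4 of the 18 lay on Itga3, Adamts1, Itgb5 and Fbn1. The strongest site of all was on Col15a1, a collagen of basement membrane zones, with a fold of 18.66 and a score of 1882.8 (chromosome 4, 47270252 to 47270377). This site also lies on the span of the predicted gene Gm52734, so its assignment is uncertain without strand. Next came Col4a1, a chain of the basement membrane network, with a fold of 18.65 and a score of 3100 (chromosome 8, 11238998 to 11239051). A score of at least 3100 was reached by 123 of all 8987 sites, and by this 1 site among the members. Col6a2, a chain of the beaded filaments of collagen VI, had a fold of 16.55 (chromosome 10, 76609257 to 76609346). These values stood at percentiles 95.2, 95.2 and 93.2 of all sites. The median over all collagen sites, 6.83, was nevertheless below the 7.13 of the whole list.

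Collagen genes also had many sites each. Their mean was 4.35 sites per gene with a site, against 1.78 for the other members and 1.80 for genes outside the choice. Of the 74 collagen sites, 23 lay on Col4a1 and Col4a2. With 5 or more sites there were 7 of 57 member genes (12.3%), against 4.84% of all 4959 genes with a site. Collagens gave 5 of these 7 (29.4% of 17 collagen genes), and the other members 2 (5% of 40 genes). These 7 were Col4a2 with 12 sites, Col4a1 with 11, Col13a1 and Col6a6 with 8 each, Col15a1 with 7, fibronectin (Fn1) with 6 and the laminin chain Lamb1 with 5.

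The pair of type IV collagen genes that make the common basement membrane network had high scores at moderate folds. From the gene start onwards, the 11 Col4a1 folds were 4.60, 4.17, 5.10, 7.28, 9.92, 18.65, 10.22, 8.95, 6.28, 7.85 and 6.23. The 12 Col4a2 folds were 7.57, 13.84, 6.85, 7.80, 4.00, 10.22, 6.17, 5.24, 5.89, 4.05, 4.42 and 3.92, the strongest at chromosome 8, 11398662 to 11398796. Both genes thus had 2 sites at or above a fold of 10, and these 4 sites lay between 60% and 80% of the span, with lower values on either side. The 4 were 17.4% of the 23 sites of the pair, against 24.6% of all sites. A score of at least 1000 was reached by 10 member sites (6.90%) and by 6.36% of all sites. Of these 10 member sites, 8 lay on Col4a1 and Col4a2, and the others on Col15a1 and Col3a1. Among sites with a fold from 6 to under 8, the median score was 2388 for 4 Col4a1 sites, 487 for 4 Col4a2 sites, 95.2 for 33 other member sites and 110 for all 2332 such sites of the list. As background, a caller's p depends on the number of reads as well as on the fold, and read numbers were not used here. Col4a3, Col4a4, Col4a5 and Col4a6, the chains of more specialised networks, had no site.

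The Col4a1 and Col4a2 genes lie head to head. The transcript starts in the promoter table, at 11312826 on the - strand and 11312805 on the + strand of chromosome 8, overlap by 22 bases. The Col4a1 site at its transcript start (11312516 to 11312826, fold 4.60, score 338.73) therefore also covers the start of Col4a2. The labels name a directional library kit beside another kit and do not say whether sites were called by strand, so reads of the 2 genes cannot be told apart there. Across the members, 22 of 145 sites (15.2%) overlapped the span of another annotated gene, in 3 cases a protein-coding one: Col4a2 at this site, Igsf5 at the Itgb2l site and Syn2 at the Timp4 site. The same overlap was not counted over all sites, so whether this share is high or low for the list is unknown.

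**Figure D3:**
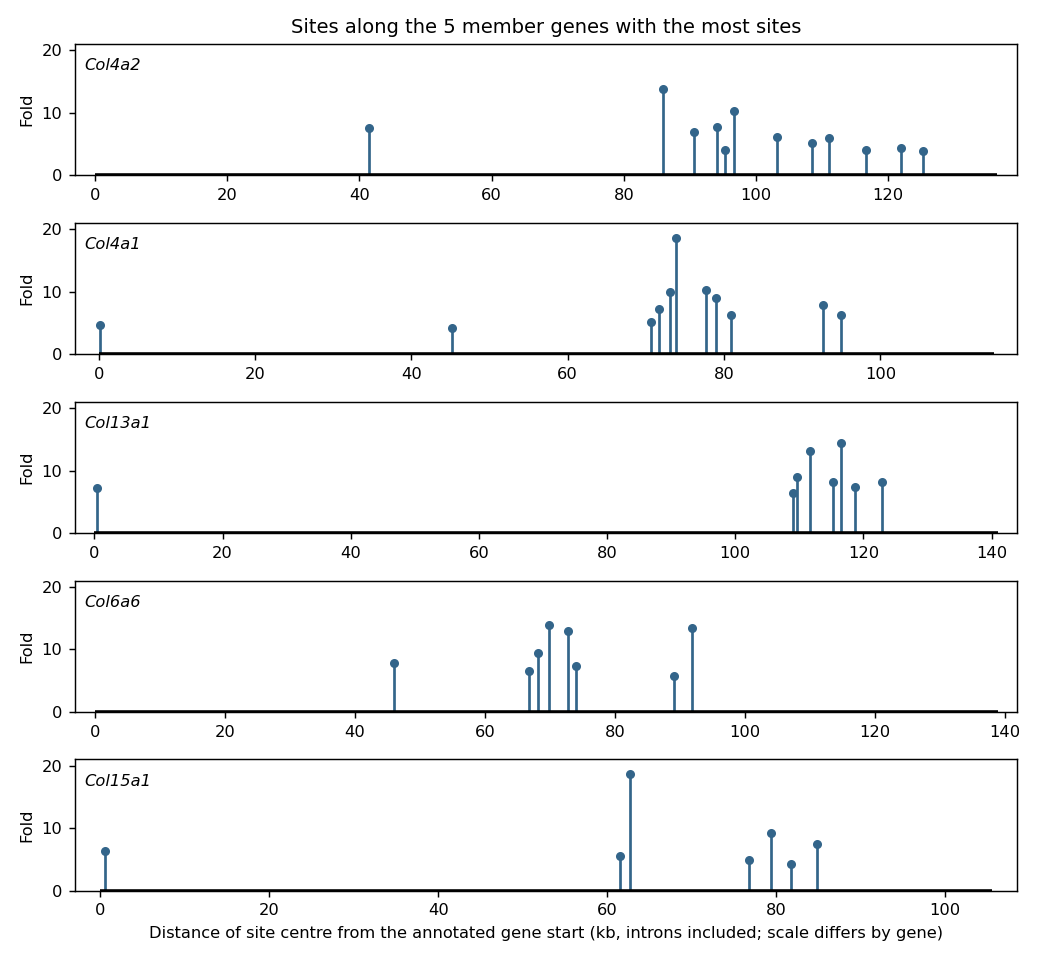
Sites along the 5 member genes with the most sites; the x axis is the distance of the site centre from the annotated gene start in kb, introns included and drawn to each gene's own scale, and the y axis is the authors' fold. The strongest Col4a1 site (fold 18.65) and Col4a2 site (13.84) stand between 60% and 80% of the span, and the sites of Col13a1 other than the one at its start crowd between 109 and 123 kb.

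Among the other collagens with many sites, Col13a1, a collagen anchored in the cell membrane, had folds from 6.34 to 14.40. Its strongest site lay at chromosome 10, 61862628 to 61862771, and all 8 had a score of at least 100, against 62.1% of all sites. Of the 8 Col13a1 sites, 7 also lay on the span of the predicted gene Gm40674, so their assignment is uncertain without strand. Col6a6, a collagen VI chain, had folds from 5.69 to 13.92, and 3 of its 8 sites (37.5%) were at or above 10, against 24.6% of all sites. Its strongest sites were at chromosome 9, 105758292 to 105758363, and 105736348 to 105736410 (fold 13.38). Col6a3 had 4 sites with folds of 4.05 to 11.71, and Col6a1 a single site at 3.82. Thus 4 collagen VI chains had sites, with strongest folds from 3.82 to 16.55, while Col6a4 and Col6a5 had none.

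Fibrillar collagens, which build the fibres of connective tissue, had sites on 5 of 11 genes. Col5a1, which helps set fibre diameter, had 4 sites with folds of 5.17 to 14.81, the strongest at chromosome 2, 28024605 to 28024860, where the predicted gene Gm13372 also lies. Col3a1 had 1 site at a fold of 12.01 with a score of 1491.86 (chromosome 1, 45332135 to 45332242) and another at 3.25. The strongest folds of Col5a2, Col11a2 and Col27a1 were 5.17 each. The type I collagen genes Col1a1 and Col1a2, and Col2a1, Col5a3, Col11a1 and Col24a1, had no site in the list. Of the remaining collagens with sites, Col20a1 reached 7.90, Col18a1 7.60, Col14a1 7.35 and Col16a1 6.45.

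Lengths divisible by 9 were frequent among collagen sites. As background, the triple helix is a repeat of 3 amino acids, and the exons that code for it are often 54 bases or another multiple of 9 bases long. Of 74 collagen sites, 34 (45.9%) had a length divisible by 9, against 12 of 71 (16.9%) for the other members and 1084 of 8842 (12.3%) for sites outside the choice. Lengths spread evenly would give 11.1%. A length divisible by 3 was found at 60 collagen sites (81.1%), at 39.4% of other member sites and at 37.9% of sites outside the choice. The commonest collagen lengths were 54 bases (7 sites) and 63 bases (6 sites). Outside the choice, 10 of 8842 sites were 54 bases long. Collagen sites were short, with a median of 93 bases against 180 for the other members and 213 outside the choice.

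The multiples of 9 came from many collagen genes. They were found in 13 of the 17 genes, with 6 of 8 sites in Col6a6, 5 of 8 in Col13a1, 4 of 7 in Col15a1 and 3 of 4 in Col5a1. The type IV collagens had smaller shares, with 1 of 11 sites in Col4a1 (9.09%) and 4 of 12 in Col4a2 (33.3%). In each of these genes, 9 sites had lengths divisible by 3. Without this pair the collagen share was 56.9%. Among sites of up to 120 bases alone, 25 of 47 collagen sites (53.2%) were multiples of 9, against 3 of 15 for other members and 12.9% of 1516 outside the choice. Exon coordinates were not used here, so the edges were not compared with exon borders. This pattern was noticed in the data and is given without a test, since sites of 1 gene share their source.

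**Figure D4:**
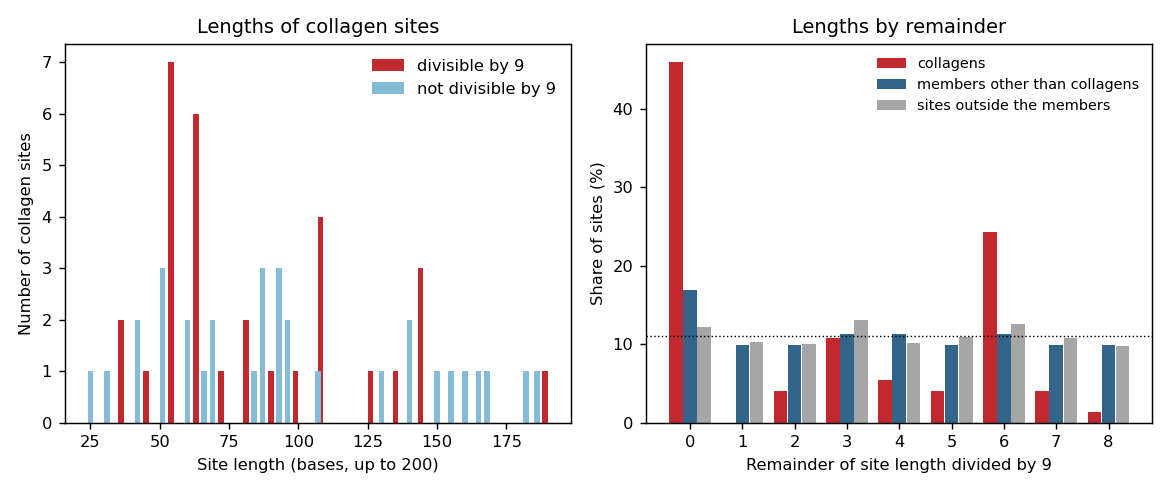
Left, number of collagen sites at each length up to 200 bases, with lengths divisible by 9 in red. Right, share of sites in percent by the remainder of their length divided by 9, for 74 collagen sites, 71 other member sites and 8842 sites outside the choice, the dotted line marking an even spread (11.1%); 45.9% of collagen sites and 12.3% of sites outside have a remainder of 0.

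Laminin chains had low to moderate folds on 6 of 11 genes. The widely expressed beta 1 and gamma 1 chains had several sites each: 5 on Lamb1, with folds of 3.48 to 5.93, and 4 on Lamc1, with folds of 5.26 to 8.09. An alpha chain of vascular laminins, Lama4, had folds of 4.38, 7.79 and 8.42, the last at chromosome 10, 38965515 to 38966149, the strongest laminin site. Lama3, an alpha chain of epithelial laminin, had folds of 3.54 and 7.35, and Lama2 had a single site at 5.44. Lama1, Lama5 and Lamb2 were among the 5 chains with none. The highest score among the 16 laminin sites was 885.71, at a Lamc1 site with a fold of 8.09 and an FDR of 61.25%. A fold of 10 was reached by 0 of the 16 laminin sites, against 24.6% of all sites.

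The partners of laminin and collagen IV in the basement membrane were at the low end. Agrin (Agrn) had 1 site with a fold of 7.08 (chromosome 4, 156197214 to 156197488), over a transcript start. Nidogen 1 (Nid1) had 4 sites with folds of 2.82 to 6.30, the lowest being the lowest fold of all 145. Perlecan had 1 site of 1139 bases with a fold of 4.21, close to the end of the gene (chromosome 4, 137569492 to 137570630). Nid2 had no site. None of the 6 sites had a score above 218.01.

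Fibronectin, the adhesive glycoprotein of the interstitial matrix, had 6 sites with folds of 4.90 to 9.53. Fibrillin 1 (Fbn1), a microfibril protein, had the strongest site of this group at 10.38 (chromosome 2, 125365484 to 125365711). Fibulin 2 (Fbln2) had folds of 5.45 and 8.27, and Sparc, a collagen-binding matricellular protein, 3.90 and 6.44. The LTBPs, which tether latent TGF-beta to the matrix, had single sites at 5.99 (Ltbp1), 6.02 (Ltbp3) and 5.08 (Ltbp4). Fbn2, Fbln1, Fbln5, Fbln7 and Ltbp2 had none.

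Integrin chains had a site on 6 of 27 genes (22.2%, interval 8.62% to 42.3%), the same share as all protein-coding genes. Each of the 6 genes had a single site, and their folds of 7.35 to 15.48 had a median of 8.84. The median was 7.13 over all sites, and 8.09 over the strongest site of each gene in the list. Itga3, whose product pairs with the beta 1 chain as a laminin receptor, had a fold of 15.48 on 584 bases that end at a transcript start, 130 bases inside the annotated gene (chromosome 11, 95076131 to 95076714). Itgb1, the shared beta 1 chain, had a fold of 7.70 (chromosome 8, 128685654 to 128685959), flush with the transcript start and the outer base of the gene. Itgb5, a partner of the alpha v chain, had a fold of 10.99 (chromosome 16, 33884953 to 33885121). The others were Itgb2l, an integrin beta 2-like gene, at 9.97, Itgb8 at 7.60 and Itga7, a laminin receptor chain of muscle, at 7.35. The Itgb2l and Itga7 sites also overlap other annotated genes. Itga6 and Itga1, chains that pair with beta 1 on laminin and collagen, and Itgav were among the 16 alpha chains with no site. The leukocyte beta chain Itgb2 and the hemidesmosome chain Itgb4 were among the 5 beta chains without.

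Inside the cell, talin 2 (Tln2) had 3 sites with folds of 5.45 to 7.90, the strongest at chromosome 9, 67393575 to 67393704. Tensin 3 had 3 sites with folds of 4.78 to 6.88, and tensin 1 (Tns1) a single site of 1530 bases, the longest of all 145, at 5.19. Talin 1, Tns2 and Tns4 had none. From a list of 18 further focal adhesion genes outside the choice, 10 had a site (55.6%), against 22.2% of all protein-coding genes. A fold of 10 was reached by 4 of their 23 sites, against 24.6% of all sites. The actin crosslinkers Actn1 (21.81) and Actn4 (18.55) were strongest, followed by focal adhesion kinase, Ptk2 (14.35, 5 sites), and the dystroglycan gene Dag1 (9.22). Actn1 was thus above every member gene. Vinculin (Vcl) had 1 site at 6.77, and paxillin (Pxn) and the integrin-linked kinase Ilk had none.

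Among proteases, ADAM genes had sites on 7 of 34 members, with folds of 3.35 to 8.39. The sheddases Adam10 and Adam17, which release cell surface proteins, had single sites at 8.39 (chromosome 9, 70678997 to 70679259) and 6.07. Adam9 had 3 sites at 4.90 to 5.54, Adam15 had 4.24 and 6.81, and Adam22, Adam23 and Adam32 had 3.35, 5.27 and 5.45. Adam11, Adam12, Adam18 and Adam19 were among the 27 without a site. Many genes of this family are known mainly from testis. Adamts1, a protease of large matrix proteoglycans, had the strongest protease site, a fold of 13.35 on 1138 bases over the transcript start (chromosome 16, 85801978 to 85803115). Adamts17 had folds of 5.51, 6.99 and 8.14, and Adamts9 a fold of 5.17.

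The MMPs with sites were Mmp14, Mmp15 and Mmp24, all membrane-bound. Mmp14, an activator of other metalloproteinases, had a fold of 8.62 on 918 bases (chromosome 14, 54440341 to 54441258). Mmp15 had folds of 5.72 and 8.17 and Mmp24 5.05, where the site also lies on the predicted gene Gm46772. The gelatinases Mmp2 and Mmp9 were among the 20 MMPs without a site. Of the inhibitors, Timp2 had folds of 5.99 and 6 and Timp4 4.99, and Timp1 and Timp3 had none. Of 18 genes that process or crosslink collagen, 8 had a site (44.4%), against 22.2% of all protein-coding genes. Each had a single site with a fold of 5.26 to 8.88, among them the collagen chaperone Serpinh1 (5.26) and the procollagen protease Bmp1 (8.27). Of 28 other matrix proteins and proteoglycans, 8 had a site (28.6%), led by Emilin1 (17.70) and the syndecan Sdc3 (12.32). A fold of 10 was reached by 2 of their 9 sites, against 24.6% of all sites.

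Position along the gene differed in its counts between collagens and the rest. Strand was known for 116 of the 145 sites, on 46 genes, and for 7197 of all sites. The position is that of the site centre along the genomic span, introns included. The 69 placed collagen sites came from 15 genes, with 11 on Col4a1, 12 on Col4a2 and 8 on Col13a1. Sites of 1 gene share their source, and these counts were not tested. Of the 69, 3 (4.35%) lay in the first 20% of the span and 48 between 60% and its end. The part from 60% to 80% held 42.0%, and the last 20% held 27.5%. Of 47 other member sites, on 31 genes, 15 (31.9%) lay in the first 20% and 14 (29.8%) in the last 20%. Sites outside the choice had 31.5% in the first 20% and 23.7% in the last 20%. Few sites were centred within 1000 bases of the gene end: 3 of 116 member sites (2.59%) and 6.11% of all placed sites. Within 1000 bases of the gene start, there were 14 member sites (12.1%), against 22.4% of all placed sites. By group these were 3 of the 69 collagen sites (4.35%) and 11 of the 47 other member sites (23.4%). In 9 member genes the site edge matched a transcript start of the promoter table to the base, which is 7.76% of the sites with a known start, against 12.7% over all sites. This last share was not split between collagens and the other members.

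**Figure D5:**
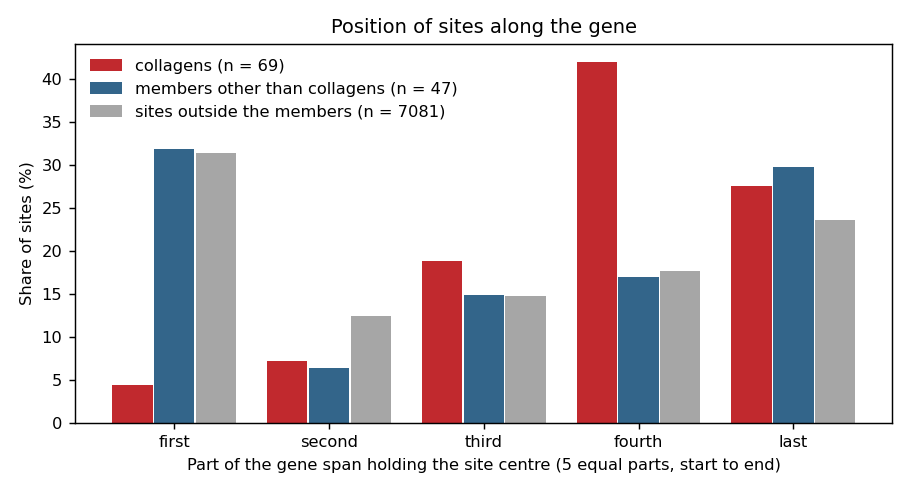
Share of placed sites, in percent, with the centre in each of 5 equal parts of the genomic span from start to end, for 69 collagen sites, 47 other member sites and 7081 sites outside the choice. Collagen sites stand lowest in the first part (4.35%) and highest in the fourth (42.0%). The 69 collagen sites come from 15 genes and the 47 other member sites from 31.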

How the data were processed

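MeRIP-seq compared 1 m6A IP library with 1 input library of islet RNA. Per the submitters' processing notes, reads were trimmed with cutadapt 1.9.3 and aligned with HISAT2 2.0.4; per the labels' protocols, sites were called with MACS and assigned to transcripts with in-house scripts. The labels name both HG19 and mm10; all 145 member sites lay on the GRCm38 span of their mouse gene. Per the file headers, the deposited score is 10 times the negative log10 of p, the deposited fold is a linear ratio, and the deposited FDR was read as a percent. The authors' deposited lengths are in bases. These values were not recomputed. Depth is unknown.

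The values of 1 member gene are not reported here. Sites were matched to RefSeq genes by gene ID, or failing that by symbol or synonym (57 of 57 member genes). Strand came from the RefSeq promoter table. Counts, medians and exact binomial intervals (counting error only) were computed with Python 3.11.15, pandas 2.3.3 and scipy 1.17.1, and position code was tested on simulated sites. With 1 library per group no test was made. Members and lists were chosen with earlier results of these data known. Named genes are all members with a site by role, with coordinates for the 10 strongest sites and the strongest of each role, and up to 8 genes without a site per role plus Col1a1, Col1a2 and other central genes; coordinates of further sites on the genes with the most sites are left out for brevity. Alternatives were limits on fold, score and FDR, merged intervals, span, the median per gene and the omission of Col4a1 and Col4a2.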

Additional observations from a re-analysis of the deposited data

How the results depend on the processing

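With 1 library per group no replicate could be left out. No paired analysis was possible because each group has 1 library and the result comes from no test. Of 41 alternative values, 25 stayed within the binomial interval of the reported value or within 1.5 times a reported count, and 16 did not. A score of at least 100 left 71 sites on 31 genes (16.1% of family genes, against 15.4% of all protein-coding genes), with a median fold of 7.80, a median strongest fold of 8.62 and 25.4% of sites at a fold of at least 10; over all sites these were 8.72, 9.75 and 38.7%. An FDR below 100% left 25 sites on 11 genes (5.70%, against 7.29%), with a median fold of 10.22, a median strongest fold of 13.92 and 52.0% of sites at a fold of at least 10, against 12.16, 13.22 and 65.8% over all sites. Under this limit the share of genes was below that of all genes and the median strongest fold above it, the opposite order to that without the limit. A fold of at least 5 moved the median fold to 7.04 (all sites 7.90). These limits keep fewer sites by construction. The median fold per gene had a median of 6.03 (all genes 7.16). A fold of at least 20 was reached by 0 of 145 member sites (0%) and by 4.05% of all sites. Counting the last 10% of the gene in place of the last 20% gave 9.48% of sites, a smaller window by construction. Merging intervals moved nothing because none touched, and the genes matched by symbol alone had no site. The omission of Col4a1 and Col4a2, and the settings for lengths divisible by 9, were chosen after seeing the data.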

Other observations

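The authors' deposited pathway annotation places 29 genes with a site in ECM-receptor interaction, of which 20 are members with 67 sites. The other 9 include the hyaluronan receptors Hmmr (9.53) and Cd44 (8.48, 3 sites), dystroglycan (9.22) and the synaptic vesicle proteins Sv2a (9.25), Sv2b (5.83) and Sv2c (7.03). In this pathway the strongest folds had a median of 7.90 over members and 7.03 over the rest. In the focal adhesion pathway, 62 of 81 genes with a site are not members, and the medians stood the other way, at 8.09 over members and 8.46 over the rest. The strongest was Rapgef1, an exchange factor for Rap GTPases, at 41.56, followed by the lipid kinase Pip5k1c at 24.69, both above every member.

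Markers of the cells that islet preparations can hold besides endocrine cells had sites too. Of 8 endothelial markers, 6 had a site (75%), against 22.2% of all protein-coding genes. Their strongest folds ran from 5.89 (Emcn) to 9.54 (Pecam1). A fold of 10 was reached by 0 of their 16 sites, against 24.6% of all sites. The endothelial diaphragm protein Plvap reached a score of 1854.81 at a strongest fold of 8.08. Of 8 markers of stellate cells, fibroblasts and pericytes, 3 had a site (37.5%), each a single one: Cspg4 (5.07), Pdgfrb (4.39) and Rgs5 (4.06). Their part in the collagen and laminin sites was not tested. Utrn and Macf1, genes outside the choice, had 5 sites each with a length divisible by 9, of 26 and 14 sites, next to 6 of 8 in Col6a6, the highest number in the list.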
